A study of Mus musculus with 9 samples.

Results

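The 8 genes described here encode transcription factors of sensory neurons. They were taken by name from the 21536 genes of the deposited count table: the POU factors Pou4f1, Pou4f2 and Pou4f3, the LIM-homeodomain factor Isl1, the homeobox factors Prrxl1 and Tlx3, and the Runt-domain factors Runx1 and Runx3. The study isolated trigeminal ganglia from wild type FVB/N mice aged 3 to 6 weeks per the labels, pooled many mice of both sexes for each of 9 Dropseq runs, enriched neurons on a Percoll gradient and depleted glia and other cells. Dropseq captures single cells in droplets with barcoded beads and counts unique molecular identifiers (UMIs), so that each captured transcript counts once. All runs share 1 table, and its cell barcodes do not name their run. The table is therefore 1 sample of 1 genotype, and differences between sets of neurons are described without a test.

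Sensory neurons of the cranial and spinal ganglia switch on Pou4f1 and Isl1 soon after they leave the cell cycle, and both proteins bind the DNA of many later sensory genes and help to shut down the earlier neurogenic programme. Runx1 and Runx3 act later and are known from the dorsal root ganglia, where Runx1 is needed for the nonpeptidergic pain and itch lineages and Runx3 for neurons that depend on the neurotrophin receptor TrkC. Tlx3 and Prrxl1 (also called Drg11) are homeobox factors of relay circuits for pain and touch, found both in sensory ganglia and in the dorsal horn.

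Barcodes counted as neurons had 500 to 7500 genes, a UMI of at least 3 of the 6 genes Tubb3, Scn9a, Snap25, Nefl, Nefm and Uchl1, and no UMI of the epithelial gene Epcam. Of 6997 barcodes, 3855 were neurons, with a median of 3014 UMIs (quartiles 1744 and 6047) and 20924276 UMIs in all. They were put into groups by marker genes, none of which is among the 8 factors, and the first rule met decided. The Trpm8 group (2 or more UMIs of the cold receptor gene) held 244 neurons, the Mrgprd group (2 or more UMIs, nonpeptidergic nociceptors) 379, the Mrgpra3 group (1 or more UMIs, itch neurons) 49, and the Nppb group (2 or more UMIs, also itch neurons) 57. The Cd34 group (1 or more UMIs, a marker of touch C fibres) held 320, the Nefh group (5 or more UMIs of the heavy neurofilament gene and none of Trpv1, large myelinated neurons) 450, and the Calca group (5 or more UMIs of the CGRP gene and a UMI of Trpv1, peptidergic nociceptors) 916. No rule was met by 1440 neurons, which were shallow, with a median of 1826.5 UMIs against 3406 to 5835.5 in the groups. They also held 81.3% of the neuronal UMIs of the glial gene Mbp, at 2247 CPM against 35.8 to 168 in the groups, and 75.5% of those of the early neuronal gene Neurod1, at 142 CPM against 2.26 to 14.1. They are part of the other neurons in each comparison of a group with all other neurons, and the part of these genes in the results was not tested. Without these 1440 neurons, an alternative added after the data were seen, the log2 ratio of each factor in its highest group stayed inside its counting interval except for Pou4f2, where it was 3.36 (3.11 to 3.61). More than 1 rule was met by 349 neurons. Without them the Trpm8 group kept 95 of its 244 neurons and the Mrgpra3 group 28 of its 49. Each of the 6 barcode sequences found in a pair of columns was kept as a pair, and no doublet was removed.

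The level of a gene in a set of neurons is given in CPM, its UMIs divided by all UMIs of the set and multiplied by 1000000, and the parentheses that follow hold the exact 95% interval of a Poisson count. Shares of neurons with at least 1 UMI carry exact binomial (Clopper-Pearson) intervals, and ratios of levels carry exact conditional binomial intervals on the log2 scale. All these intervals cover counting error only. Where a group held no UMI of a gene, the limit given is the one that a count of 0 allows, which is 3 counts.

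The 8 factors were seen far more often in neurons than in barcodes of most other cells. A UMI of at least 1 factor was found in 2997 of 3855 neurons (77.7%), against 3.42% of 146 glial barcodes, 3.06% of 458 erythroid and 3.28% of 427 anterior pituitary barcodes, whose median depths were 1524, 1360.5 and 1658 UMIs. Pou4f1 or Isl1 was found in 64.8% of neurons and 2.05% of glial barcodes. With every barcode scaled down to 1000 UMIs, by the exact expectation of random draws, these 2 shares were 31.6% and 1.60%. In the glial barcodes the UMIs of each single factor numbered between 0 and 3. Lymphoid barcodes were the exception and carried Runx1.

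Whether a factor was seen in a given neuron depended strongly on how deeply that neuron was read. Neurons were ranked by depth and cut into 4 sets of nearly equal size. From the shallowest to the deepest set, the share with Pou4f1 went from 17.4% to 75.7% and the share with Isl1 from 24.2% to 83.7%. Over the same sets the level of Pou4f1 went from 145 to 185 CPM and that of Isl1 from 230 to 265 CPM. The level of Tlx3 went from 32.5 to 48.8 CPM and that of Prrxl1 from 2.32 to 7.74 CPM, so the levels of some factors also differed with depth. In the deepest set, with a median of 10346 UMIs, 97.3% of neurons had a UMI of at least 1 of the 8 factors. Levels are the main measure below, and a neuron without a UMI was not read as one that lacks the factor.

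**Figure D1:**
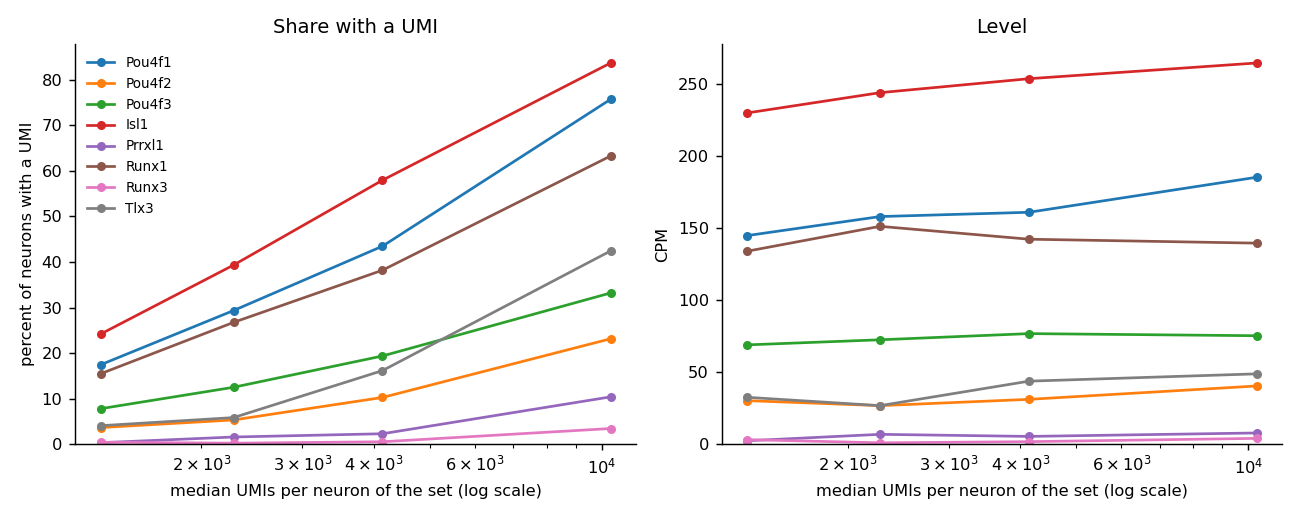
Share of neurons with a UMI (left, percent) and level (right, CPM) of each factor in 4 sets of the 3855 neurons by depth, each at its median UMIs per neuron on a log axis. Shares climb with depth for 7 of the 8 factors at every step; the share with Isl1 goes from 24.2% to 83.7%.

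Over all neurons the levels were 258 CPM (251 to 265) for Isl1, 175 (169 to 181) for Pou4f1, 141 (136 to 146) for Runx1, 74.8 (71.2 to 78.6) for Pou4f3, 44.4 (41.6 to 47.4) for Tlx3 and 36.5 (33.9 to 39.1) for Pou4f2. Prrxl1 had 143 UMIs in all, which is 6.83 CPM (5.76 to 8.05), and Runx3 had 66, which is 3.15 CPM (2.44 to 4.01). A UMI marks the 3′ end of a transcript and does not scale with its length, so these levels were not divided by length, and how well each 3′ end is captured was not measured. The 1440 neurons in no group had levels inside the range of the 7 groups for each of the 8 factors, with Pou4f1 at 151 CPM, Isl1 at 241 CPM and Runx1 at 140 CPM.

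**Figure D2:**
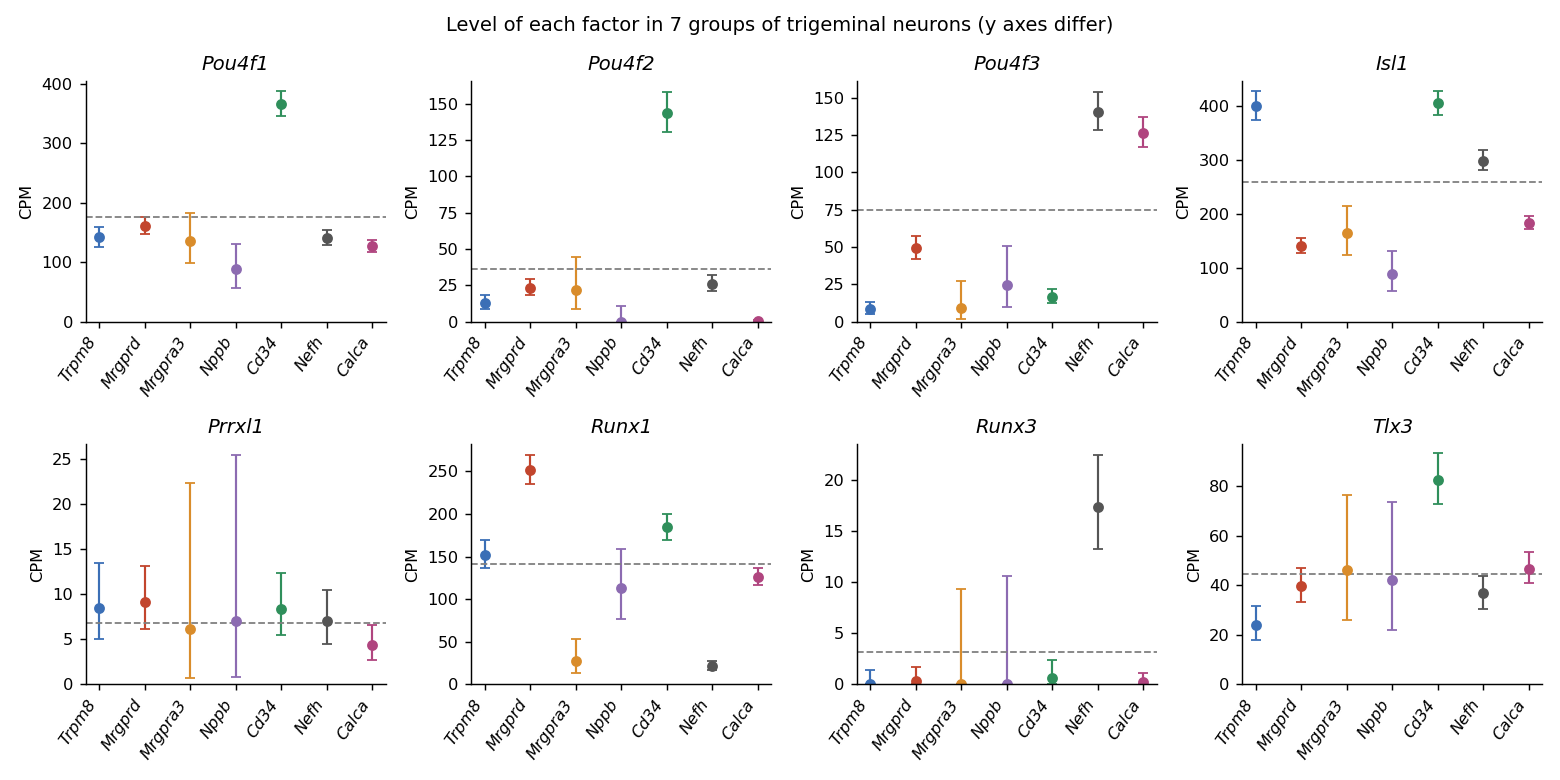
Level (CPM) of each of the 8 factors in the 7 groups of neurons, with exact Poisson 95% intervals, or the limit of 3 counts where a group had none; the dashed line is the level over all 3855 neurons and each panel has its own axis. Pou4f1, Pou4f2 and Tlx3 are highest in the Cd34 group, Pou4f3 in the Nefh and Calca groups, Runx1 in the Mrgprd group and Runx3 in the Nefh group.

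Pou4f1 (Brn3a), on chromosome 14 from 104461676 to 104467999 on the minus strand of GRCm38, is the POU factor on which the survival and subtype identity of many sensory neurons depend. It was present in all 7 groups and stood out in a single one. The Cd34 group held 366 CPM (345 to 388) of it, and 78.4% (251) of its 320 neurons had a UMI. The other groups ran from 161 CPM (148 to 176) in the Mrgprd group through 141 in both the Trpm8 and Nefh groups, 136 (98.9 to 183) in the Mrgpra3 group and 127 (117 to 137) in the Calca group to 88.0 (57.0 to 130) in the Nppb group. Neighbours in this order overlapped in their intervals everywhere except at the step below the Cd34 group. The level in the Cd34 group was 2.58 times that of all other neurons, a log2 ratio of 1.36 (1.26 to 1.47), and these 320 neurons held 30.9% of the UMIs of Pou4f1 but 14.8% of all neuronal UMIs.

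Pou4f2 (Brn3b), best known from retinal ganglion cells, lies on chromosome 8 from 78433010 to 78436645 on the minus strand. Its highest level was in the same group, and its spread was much wider. The Cd34 group had 144 CPM (131 to 158) and a UMI in 52.8% (169) of its neurons. The Nefh group had 26.2 CPM (21.0 to 32.2), the Mrgprd group 23.2 (18.3 to 29.1), the Mrgpra3 group 21.7 (8.71 to 44.6, 7 UMIs from 3 neurons, and 6.31 CPM with 1 more UMI of each group marker or 8.10 CPM without neurons with glial UMIs) and the Trpm8 group 12.7 (8.39 to 18.5). Among the 916 neurons of the Calca group a single UMI was found, 0.205 CPM (0.00520 to 1.14), and among the 57 of the Nppb group none, which allows up to 10.6 CPM and a share of up to 5.26%. The Cd34 group stood at 8.06 times the level of all other neurons, a log2 ratio of 3.01 (2.80 to 3.22), and the log2 ratio of the Cd34 to the Calca group was 9.45 with an interval from 6.97 to 14.76.

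Pou4f3 (Brn3c), the POU factor of inner ear hair cells, lies on chromosome 18. Its highest levels were in other groups. The Nefh group had 140 CPM (128 to 154) and the Calca group 126 (117 to 137), and the log2 ratio of Calca to Nefh was -0.15 (-0.33 to 0.02), so these groups did not differ beyond counting error. The Mrgprd group followed at 49.2 CPM (41.9 to 57.4). The Nppb group had 24.7 (9.91 to 50.8, 7 UMIs from 2 neurons), the Cd34 group 16.5 (12.3 to 21.7), the Mrgpra3 group 9.28 (1.91 to 27.1, 3 UMIs) and the Trpm8 group 8.49 (5.03 to 13.4). Apart from the step from Calca to Mrgprd, neighbours in this order overlapped. The low levels moved with the group rules. Without neurons that met 2 or more rules, the Cd34 group had 7.97 CPM (4.36 to 13.4) and the Nppb group 4.93 (0.125 to 27.4), which with each neuron weighted alike was 7.22. With 1 more UMI of each group marker, the Cd34 group had 7.90 CPM (4.68 to 12.5), the Trpm8 group 3.59 (1.32 to 7.82) and the Mrgpra3 group 3.16 (0.0799 to 17.6). The level in the Nefh group was 2.26 times that of all other neurons, a log2 ratio of 1.18 (1.02 to 1.33), but with each neuron weighted alike this log2 ratio was 0.59 and the Calca group was the highest. Between the Calca and Cd34 groups the order of these genes turned over, since Pou4f3 was 7.68 times higher in the Calca group, a log2 ratio of 2.94 (2.53 to 3.38), while Pou4f2 was nearly absent there. The lower values of the Cd34 group given above would make this ratio larger.

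Summed, the 3 Pou4f genes varied less than either Pou4f2 or Pou4f3 did, from 113 CPM in the Nppb group to 308 in the Nefh and 526 in the Cd34 group. Their make-up differed as well. In the Calca group 50.04% (47.2 to 52.9%) of the 1235 Pou4f UMIs were Pou4f1, 49.9% were Pou4f3 and 0.0810% were Pou4f2. The Nefh group was close to this for Pou4f1 and Pou4f3, at 45.8% and 45.6%, with 8.52% of Pou4f2. In the Cd34 group 69.5% were Pou4f1, 27.3% (25.2 to 29.6%) Pou4f2 and 3.13% (2.34 to 4.10%) Pou4f3. In the Trpm8 group 87.0% (82.9 to 90.3%) were Pou4f1, an interval that overlapped those of the Mrgpra3 group at 81.5% (68.6 to 90.7%) and the Nppb group at 78.1% (60.0 to 90.7%).

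**Figure D3:**
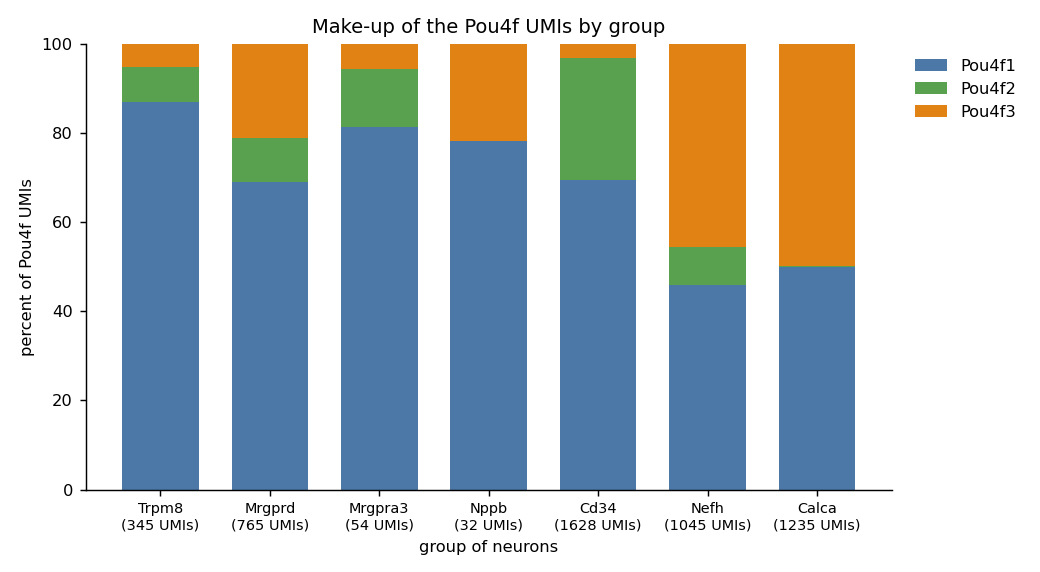
Percent of the UMIs of Pou4f1, Pou4f2 and Pou4f3 together that came from each gene, by group of neurons, with the number of UMIs under each bar. Pou4f3 makes up 45.6% in the Nefh and 49.9% in the Calca group against 3.13% in the Cd34 group, where Pou4f2 makes up 27.3%.

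Isl1, on chromosome 13 from 116298281 to 116309689 on the minus strand, is a LIM-homeodomain factor shared by sensory and motor neurons. It was the factor seen most often, with a UMI in 51.3% of neurons. The Cd34 group had 404 CPM (382 to 427) and the Trpm8 group 399 (373 to 427), a log2 ratio of 0.02 (-0.11 to 0.14). The Nefh group followed with 298 (280 to 317), then the Calca group with 184 (172 to 196), the Mrgpra3 group with 164 (123 to 214), the Mrgprd group with 141 (128 to 154) and the Nppb group with 88.0 (57.0 to 130). The intervals of the last 4 groups overlapped from neighbour to neighbour. The levels of the small itch groups moved with the choice of neurons. Isl1 in the Mrgpra3 group was 89.1 CPM (55.8 to 135) without neurons with 3 or more glial UMIs and 194 CPM, above the Calca group, without neurons that met 2 or more rules. In the Nppb group it was 34.5 (13.9 to 71.1) without neurons that met 2 or more rules, 57.1 (30.4 to 97.6) with 1 more UMI of each group marker required and 54.5 with each neuron weighted alike. The Trpm8 group was 2.84 times above the Mrgprd group, a log2 ratio of 1.51 (1.34 to 1.67).

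Isl2, the closest relative of Isl1 and part of the list of partner genes, had another order of groups. The Mrgpra3, Nppb, Mrgprd and Cd34 groups had 476 CPM (404 to 558), 468 (392 to 555), 462 (439 to 486) and 431 (408 to 455). The Nefh, Calca and Trpm8 groups had 161 (148 to 175), 150 (139 to 161) and 132 (117 to 149). The intervals of the first 4 of these overlapped. The Mrgprd and Nppb groups were thus low in Isl1 and high in Isl2, and the Trpm8 group, level with the highest in Isl1, was low in Isl2. The Mrgpra3 group, also high in Isl2, overlapped the Calca group in Isl1. The Cd34 group was high in both. The Calca group was below the other neurons in both, with log2 ratios of -0.61 (-0.72 to -0.51) for Isl1 and -0.95 (-1.06 to -0.83) for Isl2. Isl2 in the Mrgprd group was 3.49 times its level in the Trpm8 group, a log2 ratio of 1.80 (1.62 to 1.99).

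**Figure D4:**
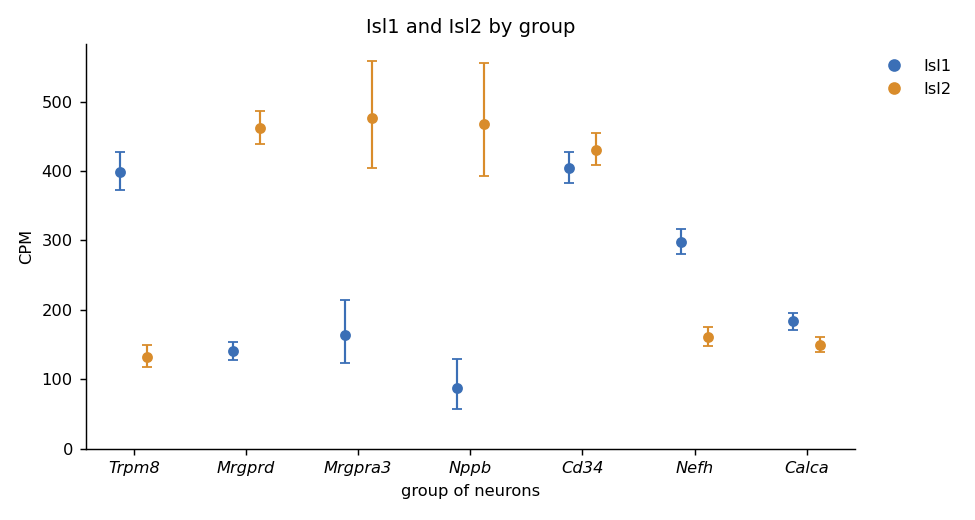
Level (CPM) of Isl1 and Isl2 in the 7 groups of neurons with exact Poisson 95% intervals. Isl1 is at 399 CPM in the Trpm8 and 141 in the Mrgprd group, Isl2 at 132 in the Trpm8 and 462 in the Mrgprd group, and both are above 400 in the Cd34 group.

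Runx1 lies on chromosome 16 from 92601466 to 92826149 on the minus strand, and Runx3 on chromosome 4 from 135120652 to 135177990 on the plus strand. Each overlaps an antisense gene of the annotation, Gm26626 and Gm16224, and whether the counting used strand is not given in the sources used here. Each gene has a pair of annotated starts in the RefSeq windows, which reach from 250 bases before to 50 bases after a start. The Runt domain binds TGTGGT, and the window at the start farther upstream in each gene holds this motif as a tandem copy, read here as ACCACA because it lies on the opposite strand. The stretches below, 30 bases each from GRCm38.p6, show these copies in capitals.
Runx1, chr16:92826025-92826054, minus strand: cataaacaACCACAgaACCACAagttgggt
Runx3, chr4:135120503-135120532, plus strand: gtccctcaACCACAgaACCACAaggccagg
The copies begin 28 bases after the start of Runx1 and 134 bases before that of Runx3. TGTGGT on either strand occurs in 16.8% of the 32851 windows of all genes, and the tandem TGTGGTNNTGTGGT in 7 of them (0.0213%). The other windows of both genes held no TGTGGT. Of the windows of the other factors, that of Prrxl1 held 1 and those of Pou4f1, Pou4f2, Isl1 and Tlx3 none. The homeodomain core TAATTA, which occurs in 5.29% of all windows, was in none of the 9 windows of the 7 factors with an entry. Pou4f3 had no entry. The tandem was searched for after the windows had been read, and a match is a run of letters and not a measured site.

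In the counts the Runx genes were highest in different groups. Runx1 was at 252 CPM (235 to 270) in the Mrgprd group, where 69.9% (265) of neurons had a UMI, at 185 (170 to 201) in the Cd34 group, 152 (136 to 170) in the Trpm8 group, 126 (116 to 136) in the Calca group and 113 (77.1 to 159) in the Nppb group. The Mrgpra3 group had 27.8 CPM (12.7 to 52.9), from 9 UMIs in 9 of its 49 neurons, and the Nefh group 22.1 (17.4 to 27.7). The gap between the Nppb and Mrgpra3 groups lay outside the intervals, with a log2 ratio of 2.02 (0.92 to 3.27), and that between Mrgprd and Nefh was 11.4-fold, a log2 ratio of 3.51 (3.17 to 3.87). In the Nefh group 54 of 450 neurons (12%) had a UMI of Runx1, against 1.37% of the shallower glial barcodes, and at 1000 UMIs these shares were 3.10% and 0.672%. The level of the Nefh group was not separable from that of the glial barcodes, 7.69 CPM (0.932 to 27.8). Without neurons that met 2 or more rules, Runx1 was at 230 CPM (190 to 275) in the Trpm8 group and at 8.10 (0.205 to 45.1) in the Mrgpra3 group. These values come from the 95 of 244 and 28 of 49 neurons left. Whether those stand for the whole groups was not tested. The itch markers therefore did not share a Runx1 level, as the Nppb group was close to the Calca group and the Mrgpra3 group close to the Nefh group.

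Runx3 was a gene of the Nefh group. Of its 66 UMIs in neurons, 59 (89.4%) lay in this group, which held 16.2% of neuronal UMIs, and its level there was 17.4 CPM (13.2 to 22.4) with a UMI in 38 of 450 neurons (8.44%). The Mrgprd and Calca groups had 1 UMI each and the Cd34 group 2. The Trpm8, Mrgpra3 and Nppb groups had none, which allows up to 1.41, 9.28 and 10.6 CPM. The Nefh group stood at 43.5 times all other neurons, a log2 ratio of 5.44 (4.31 to 6.82) that rests on 7 UMIs outside the group. It was 4.72 (3.81 to 5.76) with at least 2 of the 6 neuron markers required and 6.36 (4.71 to 8.69) without neurons with 3 or more glial UMIs.

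Tlx3, on chromosome 11 from 33200752 to 33203589 on the minus strand, is a homeobox factor that favours the glutamatergic over the GABAergic fate in the dorsal horn. It was spread over all groups. The Cd34 group was again highest with 82.7 CPM (72.9 to 93.5) and a UMI in 43.8% of neurons, a log2 ratio of 1.13 (0.92 to 1.34) to all other neurons. The Calca, Mrgpra3, Nppb, Mrgprd and Nefh groups lay between 46.8 and 36.8 CPM with overlapping intervals. The Trpm8 group had 24.0 CPM (17.9 to 31.6), and the log2 ratio of Cd34 to Trpm8 was 1.78 (1.34 to 2.25).

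Prrxl1, a paired-type homeobox gene on chromosome 14 from 32599407 to 32649246 on the plus strand, was found at a low level in every group. Its 143 UMIs came from 140 neurons, and group levels ran from 9.17 CPM (6.19 to 13.1) in the Mrgprd group to 4.31 (2.67 to 6.59) in the Calca group. Each of the 7 intervals overlapped that of the neighbouring group. The log2 ratio of the Mrgprd group to all other neurons was 0.52 (-0.11 to 1.11), so the highest group was not set apart at this depth. The Calca group was lower than the other neurons by more than counting error, with a log2 ratio of -0.82 (-1.56 to -0.14), and the log2 ratio of the Mrgprd to the Calca group was 1.09 (0.24 to 1.97).

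Of the 8 factors, 6 had at least 200 UMIs in the neurons and could be set beside all 9315 genes that did, while Prrxl1 and Runx3 could not. In 1 of the 7 groups several members were at least 2-fold higher than in the other neurons. This was the Cd34 group, with Pou4f1, Pou4f2 and Tlx3 among 6, where 3.21% of all genes passed, and Pou4f3 was at least 2-fold lower there, as were 8.03% of genes. The median log2 ratio of the 6 members was 0.96 in this group, beside -0.02 over all genes. The Mrgprd group had Runx1 higher, beside 4.99% of genes, and none lower, beside 12.2%. Isl1 was just short of the lower limit there, at 0.502 times the other neurons. Its level of 141 CPM became 137 CPM with 1 more UMI of each group marker and 158 CPM with neurons weighted alike. The call under these settings was not counted. The Nefh group had Pou4f3 higher, beside 3.65%, and Runx1 lower, beside 7.25%. The Calca group had Pou4f3 higher, beside 3.77%, and Pou4f2 lower, beside 6.36%.

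In the Trpm8, Mrgpra3 and Nppb groups no member was 2-fold higher, where 2.73%, 4.42% and 4% of genes were. The Trpm8 group had Pou4f2 and Pou4f3 lower, beside 11.8% of genes, and the Mrgpra3 group Pou4f3 and Runx1, beside 15%. In the Nppb group 4 of the 6 members were at least 2-fold lower, namely Pou4f1, Pou4f2, Pou4f3 and Isl1, beside 14.8% of genes, and the median over the members was -1.28, beside -0.08 over all genes. That group held 283972 UMIs, the fewest of the 7, and Pou4f1 met the limit narrowly at 0.499 times the other neurons. The level of Pou4f1 there was 88.0 CPM beside 175 CPM over all neurons. Without neurons that met 2 or more rules these were 88.7 and 164 CPM. Without neurons with glial UMIs they were 85.6 and 162 CPM, and with neurons weighted alike 85.2 and 160 CPM. The call of Pou4f1 is therefore not firm. Taking each gene in its highest group, 5 of the 6 members were at least 2-fold above the other neurons, all but Isl1 at 1.74 times, beside 21.1% of all genes. For Pou4f3 in the Nefh group this call ended under 4 alternatives, with log2 ratios of 0.90 without neurons that met 2 or more rules, 0.97 without neurons with glial UMIs, 0.59 with neurons weighted alike and 0.57 for shares at 1000 UMIs. For Runx1 in the Mrgprd group it ended for shares at 1000 UMIs, at 0.97. Calls outside the highest group of a factor were not put through the alternatives. Pou4f3 in the Calca group, at 2.14 times the other neurons, had 126 CPM beside 74.8 CPM over all neurons. Without neurons that met 2 or more rules these levels were 126 and 89.2 CPM. With 1 more UMI of each group marker they were 112 and 74.8 CPM. They thus lay closer together, so this call is not firm.

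The groups were then divided by further genes. These divisions, of the Nefh, Calca, Cd34 and Trpm8 groups, were chosen after the values had been seen and are descriptions. Within the Calca group Pou4f3 was very uneven. The 173 neurons with a UMI of Gpr83 or Mfap5 had 7.51 CPM (3.24 to 14.8), from 8 UMIs in 6 neurons. Of the remainder, the 191 with Dcdc2a or Sstr2 had 245 CPM (217 to 275), and 56.0% (107) of them had a UMI. The 233 of those left with Cyp1b1 or Kcnk3 had 170 CPM (149 to 193), and the last 319 had 64.2 (50.7 to 80.2). The first contrast was 32.6-fold, a log2 ratio of 5.03 (4.03 to 6.25), between sets with like median depths of 4731 and 4340 UMIs.

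The other factors followed this division far less. Pou4f1 lay between 120 and 139 CPM in the 4 parts of the Calca group, Isl1 between 168 and 198 CPM and Runx1 between 90.9 and 173 CPM. The log2 ratio between the neurons with Dcdc2a or Sstr2 and those with Gpr83 or Mfap5 was -0.06 (-0.41 to 0.29) for Pou4f1, 0.22 (-0.07 to 0.51) for Isl1 and 0.38 (0.06 to 0.70) for Runx1. Pou4f2 had no UMI in the first 3 parts, and 1 UMI in the last.

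The Nefh group also held a division of Pou4f3, of 3.26-fold between its parts with Calca and with Ntrk2. Between these parts Pou4f2 and Isl1 ran the other way. Its 89 neurons with 5 or more UMIs of Calca had 259 CPM (227 to 294) of Pou4f3, against 79.5 (61.4 to 101) in the 62 others with 3 or more UMIs of Ntrk2, the gene of the BDNF receptor TrkB. For Pou4f2 the order turned over, with 58.7 CPM (43.3 to 77.8) in the Ntrk2 neurons and 5.41 (1.76 to 12.6) in the Calca neurons, a log2 ratio of 3.44 (2.12 to 5.13). Isl1 was at 324 CPM (286 to 366) in the Ntrk2 and 189 (162 to 220) in the Calca neurons, the latter near the 184 CPM of the Calca group itself. The parts with Ntrk3 and with the remaining neurons, described below, had 346 CPM of Isl1 each. They had 124 CPM (101 to 151) and 85.3 (66.8 to 107) of Pou4f3. The shares with a UMI of Pou4f3 overlapped, at 42.7% of the Calca and 37.1% of the Ntrk2 neurons. Isl1 was thus lower in the Calca neurons and not raised in the Ntrk2 neurons alone.

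Runx3 was highest in the 81 neurons of the Nefh group that had neither and carried a UMI of Ntrk3, the gene of TrkC. They had 44.4 CPM (31.1 to 61.4), with Runx3 in 25.9% (21) of them, against 3.67 CPM (0.757 to 10.7) in the Ntrk2 neurons and 6.50 (2.38 to 14.1) in the Calca neurons. The ratio of the Ntrk3 to the Ntrk2 neurons was 12.1-fold, a log2 ratio of 3.60 (1.93 to 5.94), on 36 and 3 UMIs. The 218 remaining neurons, shallower with a median of 2896 UMIs, had 16.6 CPM (9.07 to 27.8) of Runx3 and also most of the Runx1 of the group, 52.2 CPM (37.9 to 70.0) against 9.75 to 14.8 in the other 3 parts.

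**Figure D5:**
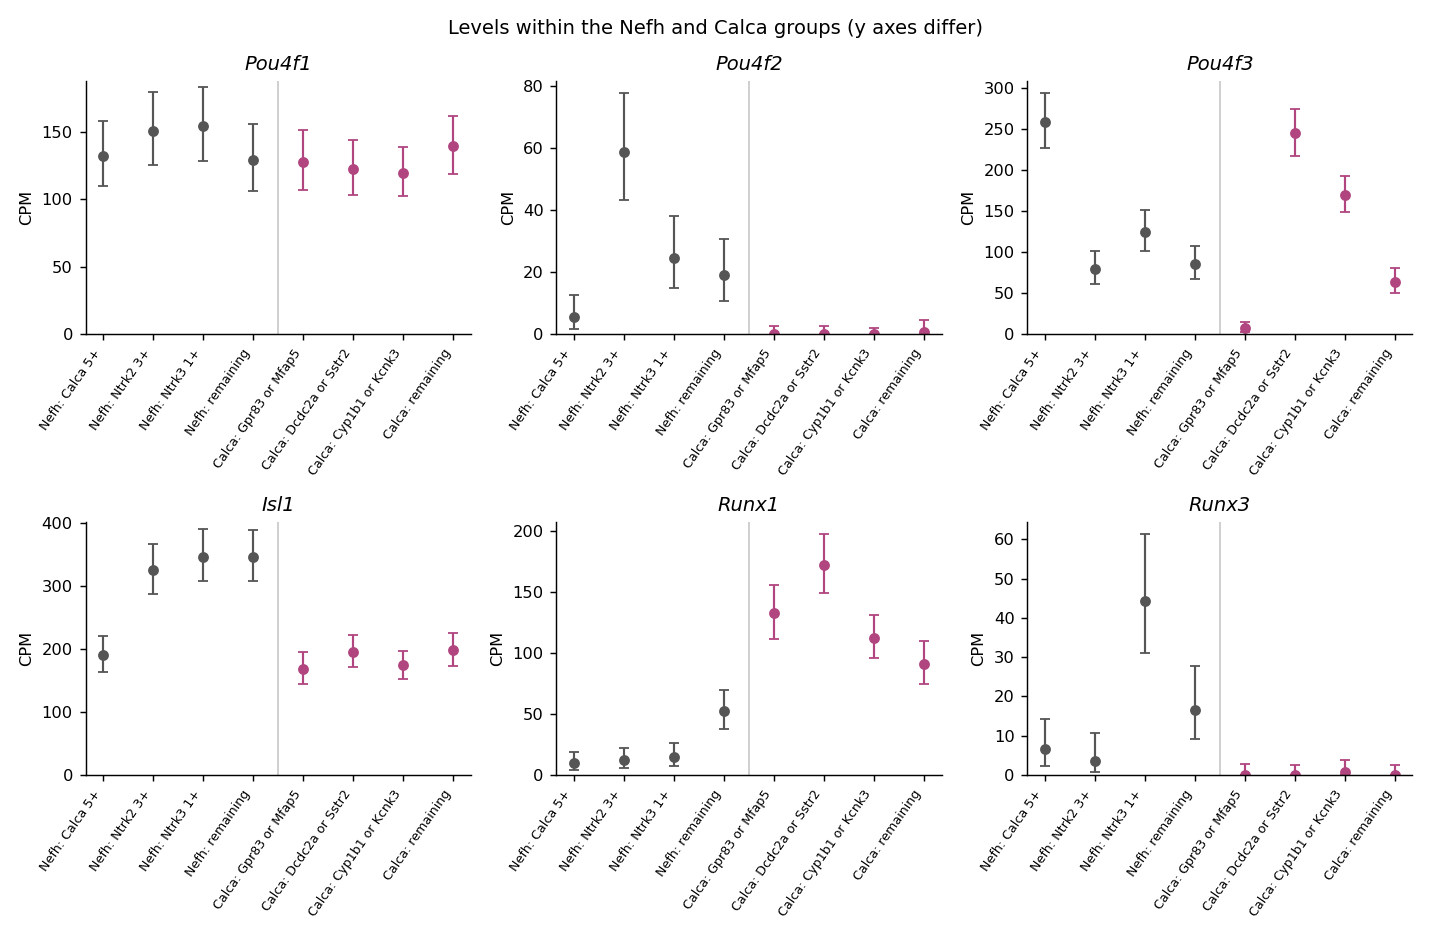
Level (CPM) of 6 factors within the Nefh group (grey) and the Calca group (purple), each divided in order by the genes on the axis, with exact Poisson 95% intervals or the limit of 3 counts where there was no UMI. Pou4f3 goes from 7.51 to 245 CPM between parts of the Calca group while Pou4f1 stays between 120 and 139, and Runx3 is highest, at 44.4, in the Nefh neurons with Ntrk3.

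In the Trpm8 group Runx1 was uneven. The 105 neurons with a UMI of Ociad2 or Cpne9 and none of Ndrg1 or Angpt4 had 104 CPM (84.5 to 127) of Runx1, and the 51 with the opposite pattern had 274 (225 to 330), a log2 ratio of 1.39 (0.98 to 1.80). The 31 with both pairs had 113 CPM (87.1 to 144) and the 57 with neither pair 231 (172 to 304), so the neurons with Ociad2 or Cpne9 were the lower ones whether or not they had Ndrg1 or Angpt4. The median depths were 5775 and 6457 UMIs in the first 2 sets, 12858 with both pairs and 2317 with neither. The part of depth in these differences was not tested. Isl1 did not differ beyond counting error between the first 2 sets, at 441 and 415 CPM. By another division, the 60 neurons with a UMI of Trpv1 had 197 CPM (164 to 235) of Runx1 and 254 (216 to 296) of Isl1, and the 184 without had 133 (116 to 153) and 461 (427 to 497). The median depths of those with and without Trpv1 were 8439.5 and 4973 UMIs.

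The Cd34 group, set by a single UMI, was not uniform either. Its 274 neurons with a UMI of Fam19a4, Cdh9 or Scin had 387 CPM (365 to 411) of Pou4f1, 157 (142 to 172) of Pou4f2 and 201 (185 to 219) of Runx1. The 46 without had 178 (135 to 231), 31.2 (15.0 to 57.4) and 40.6 (21.6 to 69.4), and their median depth was 3437.5 UMIs against 6268. Cd34 is also a gene of endothelial cells, and 16 of the 320 neurons carried a UMI of Cldn5, Pecam1 or Ly6c1. Without all neurons carrying such a UMI the log2 ratios of the Cd34 group were 1.37 for Pou4f1 and 3.02 for Pou4f2. A UMI of the glial gene Mbp was also found in 55% of the neurons of the Cd34 group, against 18.7% to 27.6% in the other groups. Without neurons with 3 or more glial UMIs, 218 of the 320 were left, with Pou4f1 at 349 CPM (319 to 381) and Pou4f2 at 123 (105 to 143), and the log2 ratios were 1.28 (1.14 to 1.42) and 2.86 (2.57 to 3.14).

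Partner genes of the factors were read from lists, with those at least 2-fold higher in their highest group than in the other neurons named. Of 8 genes listed as partners or relatives of the Runx proteins, 6 had enough UMIs and 3 passed. Tle1, a corepressor, was at 232 CPM in the Mrgpra3 group. Tle4, of the same family, and Runx1t1 were at 176 and 109 CPM in the Trpm8 group. Cbfb, the subunit that both Runx proteins need to bind DNA firmly, did not pass and was at 163 CPM over all neurons. It was highest in the Calca group at 244 CPM and lowest at 66.0 CPM in the Mrgprd group, the group highest in Runx1. Of 7 LIM-related genes, 6 had enough UMIs and 3 passed, Lmo1 at 46.8 and Lmo2 at 27.1 CPM in the Nefh group and Lmo4 at 74.3 CPM in the Mrgpra3 group. Ldb2, which bridges LIM proteins, was just short of the limit at 503 CPM in the Mrgprd group, 1.99 times the others. It was lowest, at 76.6 CPM, in the Nefh group.

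Among 5 relatives and partners of Tlx3 and Prrxl1, 2 had enough UMIs and 1 passed, Pbx3 at 40.2 CPM in the Mrgpra3 group. The Pou4f1 partner Hipk2 had 129 UMIs, too few. Of 7 factors of earlier lineage steps, 2 had enough UMIs and 1 passed, Sox4 at 324 CPM in the Nppb group. The proneural genes Neurog1 and Neurog2, active in precursors, had 44 and 4 UMIs in all neurons.

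All 5 genes listed as known to need Runx1 in dorsal root ganglia passed, and 4 of them had their highest level in the Mrgprd group, the group highest in Runx1. The receptor gene Ret was at 631 CPM there, Gfra2 at 242, P2rx3 at 84.1 and Scn11a at 1142. The fifth, Trpa1, was at 400 CPM in the Calca group. The Mrgpra3 group, with Runx1 at 27.8 CPM, held Scn11a at 1012 and Ret at 492 CPM. The Trpm8 group, with Runx1 at 152 CPM, held Scn11a at 12.7 and Ret at 40.1 CPM. Of the 3 genes listed as linked to Runx3 neurons, each was highest in the Nefh group: Ntrk2 at 171, Pvalb at 118 and Ntrk3 at 73.3 CPM. The direction of the link was not part of the list. Within that group Runx3 was at 3.67 CPM (0.757 to 10.7, 3 UMIs) in the part with 3 or more UMIs of Ntrk2. This overlapped the 6.50 CPM (2.38 to 14.1) of the part with Calca. It lay below the 44.4 CPM (31.1 to 61.4) of the part with Ntrk3. Pvalb was at 113 CPM in the Trpm8 group as well, where Runx3 had no UMI, and Ntrk3 at 59.1 in the Cd34 group, where it had 2. The background of 21.1% given above applies to these lists, which were chosen with results of these data known. It covers passing 2-fold in any highest group. How many of all genes were highest in the Mrgprd or the Nefh group was not counted. The counts of 4 of 5 and 3 of 3 therefore have no background.

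Of 6575 genes with at least 500 UMIs, the 3 most like each factor were taken by Pearson's r of log2(CPM + 10) over the 7 groups. With 7 points that share their libraries, high values of r are common, and they are given as a description. Runx3 was most like Spp1 (r = 0.99), at 133 CPM in the Nefh group and no more than 5.17 in any other, then Maf (0.96) and Chga (0.94). Pou4f2 was most like Plekha5 (0.97), Colgalt2 and Zfp259, and Pou4f1 like Arpc2 (0.97), Clock and Rap2a, all highest in the Cd34 group. For Isl1 these were Vps13c (0.98), Vps9d1 and Ebag9, for Pou4f3 Herc3 (0.96), Ap2s1 and Cnr1, and for Tlx3 Acot9 (0.97), Scarb2 and Myadm. For Runx1 they were Coq2 (0.97), Gtf3c1 and Pithd1, and for Prrxl1 Cwc27 (0.95), Synm and Timm13. Coq2 ran only from 43.3 to 66.6 CPM over the groups, where Runx1 ran from 22.1 to 252. Cnr1, the cannabinoid receptor gene, had 39.8 CPM in the Calca and 38.9 in the Nefh group, and 0 to 13.1 in the other 5.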

How the data were processed

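Dropseq libraries of 9 runs were sequenced by the authors, and the submitters' processing notes name bcl2fastq 2.17, STAR 2.5.3a, Seurat 1.4.0.16 and the mm10 build. The deposited table holds raw UMI counts per gene and barcode, with at least 1000 UMIs in each barcode and no normalization. The members, marker rules and lists were chosen with earlier results of these data known. The authors' clusters were not used. Groups were set by rule with Python 3.11.15 and counts were summed over the barcodes of a group and scaled to CPM (numpy, scipy). Intervals were exact, at 95%. Genes with at least 200 UMIs in neurons entered the counts of 2-fold differences. Glial barcodes had at most 1 neuron marker, 10 or more UMIs and at least 3 genes of a glial marker list that includes Mbp, Sox10 and Fabp7, erythroid ones 10% or more haemoglobin UMIs, and pituitary ones 5% or more of Gh, Prl, Pomc and Cga. Named genes were the members, the listed partners past 2-fold and the 3 genes most alike. Some genes of the lists are not reported here. No doublet caller was run. The fold and thinning steps were tested on simulated data. Alternatives changed the neuron and group rules, the depth and the averaging.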

Additional observations from a re-analysis of the deposited data

Results flagged for a closer look

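Runx1 was also seen outside the neurons. Barcodes with UMIs of at least 2 of the lymphoid genes Vpreb3, Igll1 and Cd79a, and of at most 1 neuron marker, numbered 66, and they held Runx1 at 123 CPM (70.2 to 199), from 16 UMIs in 11 barcodes. This lay above the 7.69 CPM (0.932 to 27.8) of glial barcodes and near the 126 CPM of the Calca group. Runx1 is known as a factor of blood cell formation. None of the other 7 factors had a level in erythroid, pituitary, endothelial, lymphoid or olfactory barcodes whose interval lay above that of the glial barcodes.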

How the results depend on the processing

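The log2 ratio of each factor in its highest group to all other neurons kept its sign under each of 9 alternatives and of 2 more, added after the data were seen, in which neurons with an endothelial UMI or neurons in no group were left out. Without the latter it was 3.36 for Pou4f2. With each neuron weighted alike it was 2.60 for Pou4f2 and 0.59 for Pou4f3. As a ratio of shares at 1000 UMIs per neuron it was 1.15 for Pou4f1, 2.59 for Pou4f2 and 0.57 for Pou4f3. With neurons carrying 3 or more glial UMIs left out it was 0.97 for Pou4f3, and without neurons that met 2 or more rules 0.90 for Pou4f3 and 0.95 for Isl1. These values lay outside the counting intervals, and the cause was not tested. Of 64 levels, 8 factors in 7 groups and in all neurons, 14 moved outside their counting intervals without neurons that met 2 or more rules, 11 with each neuron weighted alike, 9 without neurons with glial UMIs and 7 with 1 more UMI of each group marker. The highest group changed for Isl1 to Trpm8 with 2 neuron markers in place of 3, for Pou4f3 to Calca with each neuron weighted alike and for shares at 1000 UMIs, and for Prrxl1 to Cd34 under both of these and without neurons with glial UMIs. No paired analysis was possible because the 9 runs form 1 group in 1 table. Depth limits Prrxl1 and Runx3, and the spread between runs or mice was not measurable.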

Other observations

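Above the upper limit on genes lay 40 barcodes with more than 7500 genes and at least 3 neuron markers, which were not counted as neurons. All 8 factors had UMIs in them, with Pou4f1 at 188 CPM, Isl1 at 235, Runx1 at 89.0, Pou4f3 at 90.1 and Runx3 at 11.1 CPM from 33 UMIs, against 3.15 CPM of Runx3 over the 3855 neurons. Whether these are single cells was not determined.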
